A study of Homo sapiens with 6 samples.

Results

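The amino acid transporter genes of the SLC1, SLC3, SLC7, SLC36, SLC38 and SLC43 families were examined in cells of the human ovarian cancer line SKOV3 that carried an shRNA against CPT1A. CPT1A couples long-chain fatty acids to carnitine at the outer mitochondrial membrane, the step that controls their entry for oxidation. Members were all rows of the deposited gene table whose symbol consists of SLC1A, SLC3A, SLC7A, SLC36A, SLC38A or SLC43A and a number, leaving out SLC7A11, which gave 39 of 57905 genes. There were 3 libraries of SKOV3 cells carrying the CPT1A shRNA and 3 libraries of control SKOV3 cells labelled wild type, all in normal culture. The labels mention no control hairpin, and the tag sh2 in the deposited columns of the shRNA libraries is not explained, so loss of CPT1A cannot be told apart from other effects of an shRNA. The labels call the libraries of a group biological replicates without saying whether each came from its own transduction. The p-values therefore measure the spread between these libraries, which may be technical in part.

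Amino acids cross membranes on carriers that differ in substrate and in driving force. The SLC1 carriers take up glutamate or exchange small neutral amino acids, SLC7 light chains exchange large neutral or cationic amino acids as partners of an SLC3 heavy chain, and the cationic carriers of SLC7 work without a heavy chain. SLC36A1 moves small amino acids together with protons, and SLC38 carriers move glutamine and other neutral amino acids with sodium. The first SLC43 carriers let large neutral amino acids pass without sodium. In cancer cells SLC7A5, SLC3A2 and SLC1A5 are known as major routes for essential amino acids and glutamine, and several members sit on lysosomes, where amino acids are sensed by the kinase complex mTORC1.

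Summed gene counts ran from 15740143 to 22271565 per library. CPT1A itself had 2.16, 2.00 and 1.96 FPKM (counts scaled by exonic length and by the library's summed counts) in shRNA libraries 1 to 3, against 6.70, 8.06 and 8.0 FPKM in control libraries 1 to 3. Its log2 change was -1.97 ± 0.09 (SE; edgeR quasi-likelihood test, Benjamini-Hochberg adjusted p = 3.3e-06). On the first principal component of log2 CPM, with 57.4% of the variance, shRNA libraries lay at 28.4 to 35.1, control replicates 1 and 3 at -38.5 and -38.0, and control replicate 2 at -17.2, so that this control library stood apart. Of the epithelial and SKOV3 markers, KRT8 had 314.0 to 324.7 FPKM in shRNA libraries and 444.8 to 564.9 FPKM in control libraries, and ERBB2, known to be amplified in SKOV3, had 174.5 to 265.6 and 152.3 to 196.0 FPKM, whereas MUC16 stayed at or below 0.03 FPKM in all 6 libraries. The 10 epithelial and SKOV3 markers summed to 1106 to 1271 FPKM in shRNA libraries and 1623 to 1988 FPKM in control libraries. Of these markers 8 were tested, and 5 were called lower and none higher. This is 62.5% of the tested markers, beside 27.4% of all genes tested called in either direction and 13.7% called lower. The 7 fibroblast markers summed to 0.22 to 0.39 FPKM in shRNA libraries and 1.01 to 1.37 FPKM in control libraries, with 6 of 7 under 1 FPKM everywhere. The 6 matched endothelial markers summed to 0.48 to 0.74 and 0.29 to 0.42 FPKM and the 9 immune markers to 0.86 to 1.15 and 0.94 to 1.58 FPKM, and CD3E and FCGR3A had no count. Whether these shifts have a part in the transporter values was not tested, and in RNA of a whole culture fewer cells of a kind and less RNA per cell cannot be told apart.

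Many transporter genes had little RNA, and the RNA of the families was dominated by a single pair. Of the 39 members, 6 had no count in any library (SLC1A6, SLC36A2, SLC38A11, SLC7A3, SLC7A13 and SLC7A14). By counting error, a count of 0 in a library leaves room for an expected count of up to about 3. A minimum of 1 FPKM in 3 or more libraries was met by 16 members, and these were tested. SLC7A5 (LAT1), the exchanger of leucine and other large neutral amino acids, and SLC3A2, the heavy chain CD98 that carries it to the membrane, together made up 69.2%, 70.5% and 71.1% of all member FPKM in the shRNA libraries and 68.0%, 65.5% and 70.9% in the control libraries. By mean FPKM, SLC7A5 ranked 134 of 57905 genes in shRNA libraries and 237 in control libraries. Over all 6 libraries the mean levels of the tested genes fell in the order SLC7A5 (194 FPKM), SLC3A2 (99.2), SLC1A5 (31.9), SLC38A10 (24.0), SLC38A2 (20.5), SLC7A1 (14.4), SLC38A1 (9.28), SLC38A7 (6.39), SLC7A6 (4.40), SLC1A4 (3.91), SLC36A1 (3.58), SLC7A7 (2.42), SLC38A6 (2.17), SLC1A1 (1.62), SLC38A9 (1.29 FPKM) and last SLC7A8. Summed over all members, the level was 430.4, 459 and 461.6 FPKM in shRNA libraries and 381.9, 396.8 and 412.8 FPKM in control libraries. Divided by the TMM factors of the fit, which rescale libraries on the bulk of their genes, the sums were 417.9, 447.4 and 452.5 FPKM in shRNA libraries and 397, 394.8 and 430.4 FPKM in control libraries, and the groups overlapped.

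**Figure D1:**
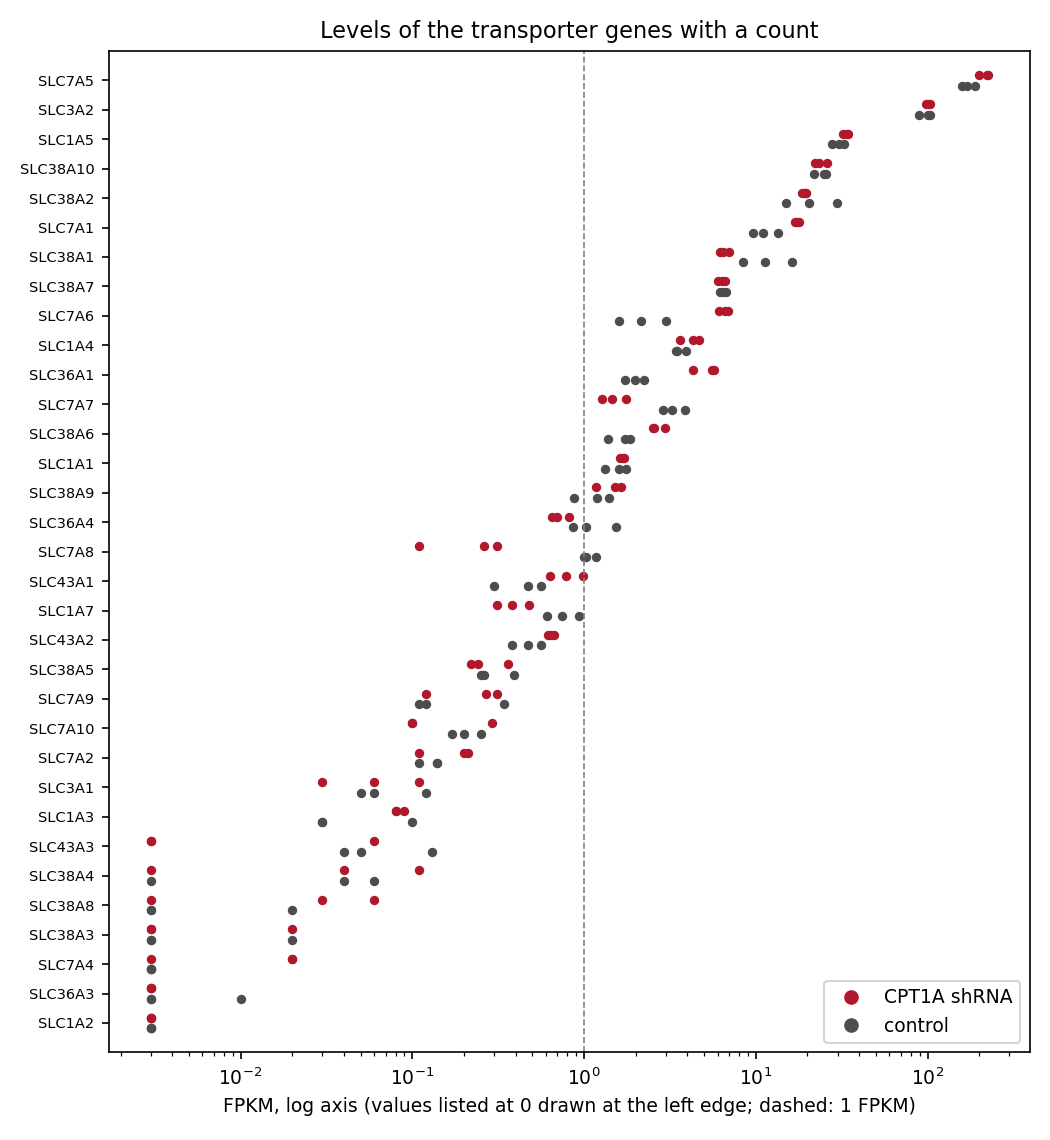
FPKM of the 33 transporter genes with at least 1 count, on a log axis, with red points for the 3 CPT1A shRNA libraries above grey points for the 3 control libraries in each row and genes ordered by their mean. SLC7A5 and SLC3A2 lie near and above 100 FPKM, and the points of SLC7A6, SLC36A1, SLC7A7, SLC38A1 and SLC7A8 show groups that do not overlap. The same holds for SLC7A5, SLC7A1 and SLC38A6, and for 42.6% of all tested genes. Groups also do not overlap for SLC1A7, SLC36A4, SLC43A1 and SLC43A2, which were not tested and so are outside that share.

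Of the 16 tested transporter genes, 4 rose with the CPT1A shRNA (SLC7A6, SLC36A1, SLC38A6 and SLC7A1), 3 fell (SLC7A8, SLC7A7 and SLC38A1) and 9 did not pass the test. The background was 27.4% of 12784 genes called in either direction, 13.8% higher and 13.7% lower, beside 43.8% of the 16 members. Without control replicate 1 the background was 14.7%, without shRNA replicate 2 it was 16.1% and without control replicate 2 it was 39.5%, with 7, 6 and 7 members called. SLC7A8 was tested only through its control libraries, which were at or just above the minimum, and a gene that passes in this way had to differ. With total counts in place of TMM scaling, 61.8% of all called genes were higher, against 50.2%. The median log2 change of the tested members was 0.05, beside -0.01 over all genes tested, and the median absolute log2 change was 0.25, beside 0.29. In 8 of the 16 members the groups did not overlap in FPKM, against 42.6% of all tested genes, and in 7 after division by the TMM factors, against 42.2%. With a filter on counts in place of the FPKM minimum (edgeR's filterByExpr), 24 members were tested and 9 called, against 24.8% of 15880 genes, and the additional calls were SLC1A7 and SLC36A4, both lower.

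**Figure D2:**
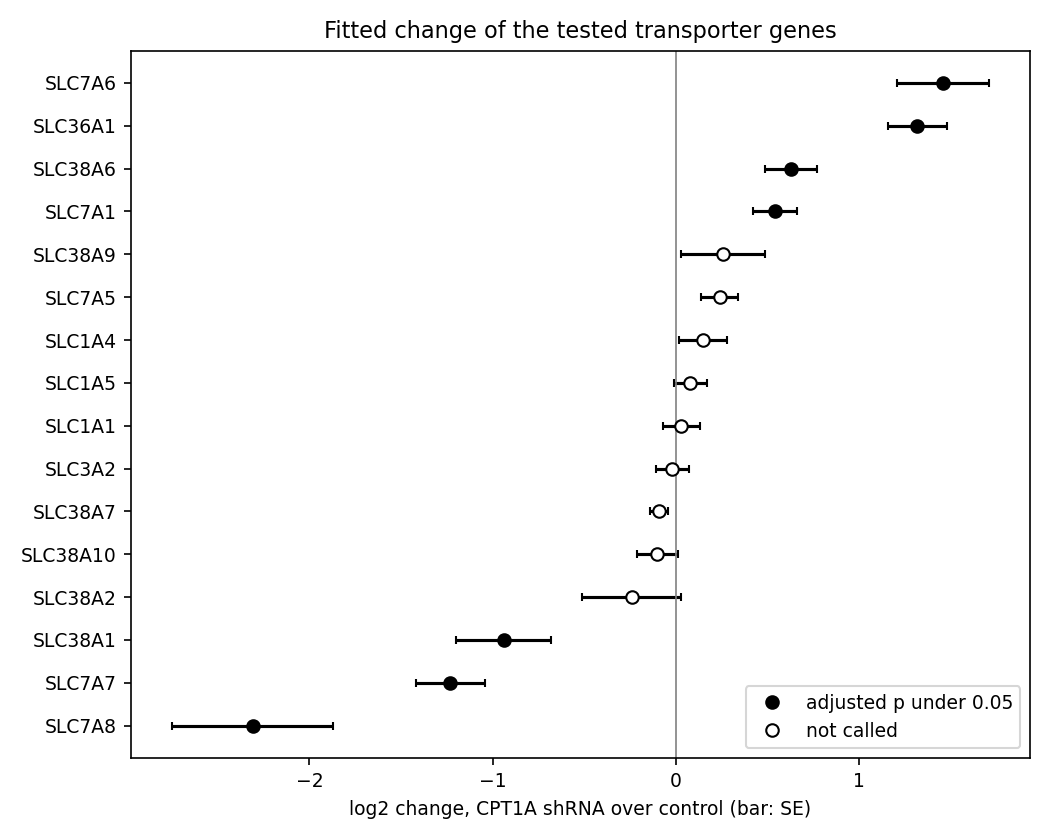
Fitted log2 change of the 16 tested transporter genes, CPT1A shRNA over control, with bars of 1 SE and filled points for an adjusted p under 0.05. SLC7A6 at 1.46 and SLC36A1 at 1.32 lie at the upper end and SLC7A8 at -2.31 at the lower end, with 9 open points between -0.24 and 0.26.

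The sequences before the start sites of the genes with the largest changes are shown because members that moved in opposite directions can be set side by side. They are the 250 bases upstream of a RefSeq start (GRCh38.p14), 5′ to 3′ on the gene's strand. SLC36A1 has 2 such windows in RefSeq, SLC7A7 has 3 and SLC7A8 has 4, and the window with a match is given, which is chr5:151447353-151447602 (plus strand) for SLC36A1, chr14:22815872-22816121 (minus strand) for SLC7A7 and chr14:23154394-23154643 (minus strand) for SLC7A8. SLC7A6 has 1 window, chr16:68264276-68264525 (plus strand), and no match. Capitals mark CACGTG, the palindromic E-box bound by MYC and by TFEB and TFE3.
SLC36A1: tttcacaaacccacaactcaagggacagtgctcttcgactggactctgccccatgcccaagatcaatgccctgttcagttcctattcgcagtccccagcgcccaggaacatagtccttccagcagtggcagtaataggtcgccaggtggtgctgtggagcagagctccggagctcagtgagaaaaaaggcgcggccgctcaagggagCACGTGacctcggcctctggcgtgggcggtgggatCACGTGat
SLC7A6: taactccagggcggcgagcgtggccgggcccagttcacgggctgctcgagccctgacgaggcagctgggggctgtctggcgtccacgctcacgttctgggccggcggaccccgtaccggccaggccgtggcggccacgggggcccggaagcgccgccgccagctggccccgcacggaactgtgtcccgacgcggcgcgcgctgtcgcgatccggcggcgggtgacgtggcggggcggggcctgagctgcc
SLC7A7: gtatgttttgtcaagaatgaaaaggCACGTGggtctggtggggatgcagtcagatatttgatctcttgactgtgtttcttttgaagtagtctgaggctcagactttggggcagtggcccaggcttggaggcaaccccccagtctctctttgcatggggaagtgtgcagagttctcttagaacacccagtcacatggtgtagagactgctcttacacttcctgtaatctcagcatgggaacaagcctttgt
SLC7A8: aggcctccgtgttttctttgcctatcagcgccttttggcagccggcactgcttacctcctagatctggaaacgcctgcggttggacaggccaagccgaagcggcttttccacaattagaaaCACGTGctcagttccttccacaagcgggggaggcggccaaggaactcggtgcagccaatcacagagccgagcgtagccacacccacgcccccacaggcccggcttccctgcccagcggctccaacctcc
SLC36A1 held the E-box at 43 and again at 8 bases before its start, SLC7A8 at 129 and SLC7A7 at 225. RefSeq windows were matched for 31 of the 39 members, and 8 of these (25.8%) held CACGTG in some window, against 7.73% of 27305 genes. Counted per window, since a gene can have several, 8 of 53 member windows (15.1%) and 6.34% of 35116 windows held it. No window was matched for SLC1A2, SLC3A1, SLC38A3, SLC43A3, SLC7A2, SLC7A3, SLC7A4 and SLC7A13. The 8 were SLC36A1, which rose, SLC7A7 and SLC7A8, which fell, SLC7A5 and SLC1A5, which were not called, and SLC1A7, SLC38A5 and SLC43A1, which were not tested. TGATGNAAN, the core of the amino acid response element through which ATF4 acts, was searched on both strands and lay in a window of SLC1A3 and of SLC1A5, 2 of 53 member windows (3.77%) against 3.13% of all windows. No window of a called gene held it, which says only that these letters are not in these windows.

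The heavy chain SLC3A2 and its chief partner SLC7A5 did not pass the test. SLC3A2 had 98.1, 101.2 and 103.4 FPKM in the shRNA libraries and 100.3, 89.3 and 102.7 FPKM in the control libraries, and the groups overlapped (log2 change -0.02 ± 0.09 SE, edgeR adjusted p = 0.891). Its sign changed with total-count scaling, so no direction is given. SLC7A5 had 199.6, 222.4 and 224.6 FPKM in the shRNA libraries, all above the 159.4, 170.3 and 189.9 FPKM of the control libraries. Divided by the TMM factors, the lowest shRNA library had 193.8 FPKM and the highest control library 198 FPKM, so that the groups overlapped. The difference was small for the spread (log2 change 0.24 ± 0.10 SE, edgeR adjusted p = 0.104), and it passed in 4 of 14 alternatives, with adjusted p from 0.0266 to 0.329. The pseudogene SLC7A5P1, which can share reads with SLC7A5, had 10 to 42 counts per library, against 13830 or more for SLC7A5. The other heavy chain, SLC3A1, which pairs with the cystine carrier SLC7A9, was at most 0.12 FPKM, and SLC7A9 at most 0.34 FPKM.

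Among the minor light chains the members moved in both directions. SLC7A6 (y+LAT2), which exports arginine and other cationic amino acids in exchange for neutral amino acids and sodium, had 6.11, 6.64 and 6.85 FPKM in shRNA libraries, against 1.60, 3.02 and 2.15 FPKM in control libraries. It rose 2.75-fold (log2 change 1.46 ± 0.25 SE, edgeR adjusted p = 0.000209), and the lowest shRNA library was above the highest control library by more than the range of either group. SLC7A7 (y+LAT1), which has the same exchange activity and is best known from kidney and intestine, went the other way, with 1.75, 1.46 and 1.28 FPKM in shRNA libraries and 3.24, 2.89 and 3.89 FPKM in control libraries. It fell 2.34-fold (log2 change -1.23 ± 0.19 SE, edgeR adjusted p = 0.00055). SLC7A8 (LAT2), an exchanger of small and large neutral amino acids, had 12, 24 and 35 counts in shRNA libraries, against 109, 136 and 133 counts in control libraries, or 0.11, 0.26 and 0.31 FPKM against 1.00, 1.03 and 1.17 FPKM. Its fitted decrease was the largest of the tested members at 4.96-fold (log2 change -2.31 ± 0.44 SE, edgeR adjusted p = 0.000257). SLC7A8 met the FPKM minimum through its control libraries alone, so its call and its rank are no independent support for a difference. On log2(FPKM + 1), which compresses low genes, its log2 change was -0.76 with limma under the same minimum (limma adjusted p = 0.00503). SLC7A10, the exchanger of small neutral amino acids, was at most 0.29 FPKM.

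The human coordinates of the authors' table were compared with GRCh38 alone, and the submitters' processing notes name mm8, a mouse build. In that table SLC7A6 (ENSG00000103064) occupies 68298433 to 68335722 of chromosome 16, plus strand. SLC7A7 (ENSG00000155465) and SLC7A8 (ENSG00000092068), which both fell, occupy 23242431 to 23299029 and 23594504 to 23652883 of chromosome 14, minus strand. SLC7A6 shares 17317 bases of its span with SLC7A6OS on the other strand. Reads of the pair cannot be assigned by strand because the strand of the libraries is not stated, and SLC7A6OS had 2.31 to 2.53 FPKM in shRNA libraries and 1.93 to 2.07 FPKM in control libraries (log2 change 0.20, edgeR adjusted p = 0.373).

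Set against each other within a library, SLC7A6 was above SLC7A7 in each shRNA library, and among the control libraries in replicate 2, narrowly, but not in replicates 1 and 3. The ratio of SLC7A6 to SLC7A7 in FPKM was 3.49, 4.55 and 5.35 in the shRNA libraries, against 0.494, 1.04 and 0.553 in the control libraries, while their sum was 7.86, 8.10 and 8.13 FPKM in shRNA libraries and 4.84, 5.91 and 6.04 FPKM in control libraries. These ratios were chosen after the values were seen and carry no test. The share of SLC7A6 in the summed FPKM of the SLC3A2 light chains (SLC7A5, SLC7A6, SLC7A7, SLC7A8 and SLC7A10) was 2.94%, 2.88% and 2.94% in shRNA libraries and 0.967%, 1.70% and 1.09% in control libraries. SLC7A5 held 96.0% to 96.3% of that sum in shRNA and in control libraries alike. The ratio of SLC3A2 to the same sum was 0.472, 0.439 and 0.444 in shRNA libraries and 0.606, 0.503 and 0.521 in control libraries, with every shRNA library below every control library. Its means were 0.451 ± 0.018 and 0.543 ± 0.055 (SD, n = 3 each; exact two-sided permutation p = 0.1, the smallest that 3 against 3 allows).

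**Figure D3:**
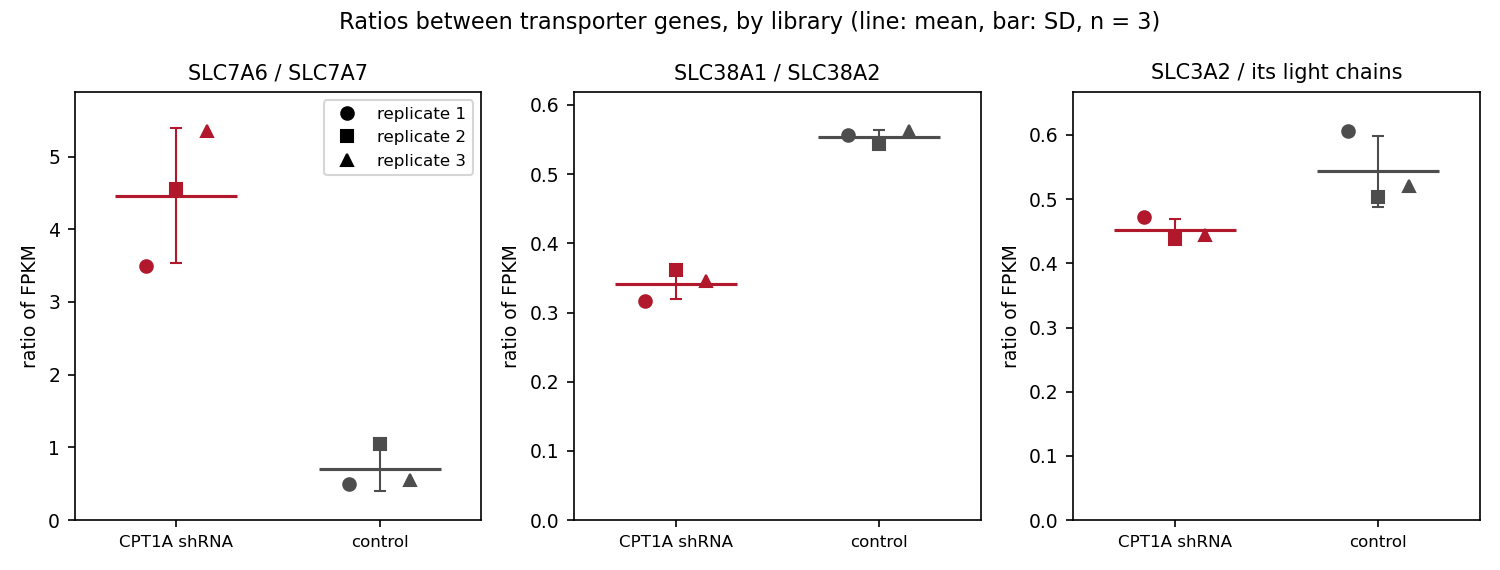
Ratios of FPKM within each library for SLC7A6 over SLC7A7, SLC38A1 over SLC38A2 and SLC3A2 over its summed light chains, with CPT1A shRNA on the left and control on the right, lines at the mean, bars of 1 SD and a symbol for each replicate. The groups do not overlap in any panel: SLC7A6 over SLC7A7 lies between 3.49 and 5.35 with the shRNA and between 0.494 and 1.04 in control. SLC7A6 over SLC7A7 and SLC38A1 over SLC38A2 were chosen after the values were seen, so their separation carries no test.

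Of the cationic carriers, SLC7A1 was the only member tested. SLC7A1 (CAT-1), the main carrier for arginine, lysine and ornithine in most cells, had 17.0, 17.3 and 17.8 FPKM in shRNA libraries and 9.68, 13.4 and 11.1 FPKM in control libraries, without overlap. It rose 1.45-fold (log2 change 0.54 ± 0.12 SE, edgeR adjusted p = 0.00601). Without control replicate 1 the log2 change was 0.44 and the edgeR adjusted p = 0.0492, close to the threshold, whereas the lowest adjusted p among 14 alternatives was 0.000826. The authors' table places SLC7A1 (ENSG00000139514) at 30083547 to 30169825 of chromosome 13, minus strand. SLC7A2, an inducible arginine carrier, was at 0.11 to 0.21 FPKM in all libraries and SLC7A4 had 2 counts in total.

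SLC36A1 (PAT1), which carries glycine, alanine and proline with protons across the lysosomal and plasma membranes, had the smallest p among the members. It had 4.31, 5.73 and 5.53 FPKM in shRNA libraries and 1.73, 2.22 and 1.99 FPKM in control libraries, and the groups were far apart. The increase was 2.49-fold (log2 change 1.32 ± 0.16 SE, edgeR adjusted p = 0.000143). The authors' table places SLC36A1 (ENSG00000123643) at 150816607 to 150871942 of chromosome 5, plus strand, and its only overlapping gene there, RNA5SP197, had 2 counts in total. Its relative SLC36A4, a carrier of proline and tryptophan, lay on the other side: it had 0.70, 0.65 and 0.82 FPKM in shRNA libraries and 1.03, 1.53 and 0.86 FPKM in control libraries. SLC36A4 missed the FPKM minimum, and with the count filter its log2 change was -0.73 (edgeR adjusted p = 0.0229). The related SLC36A3 had at most 0.01 FPKM.

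**Figure D4:**
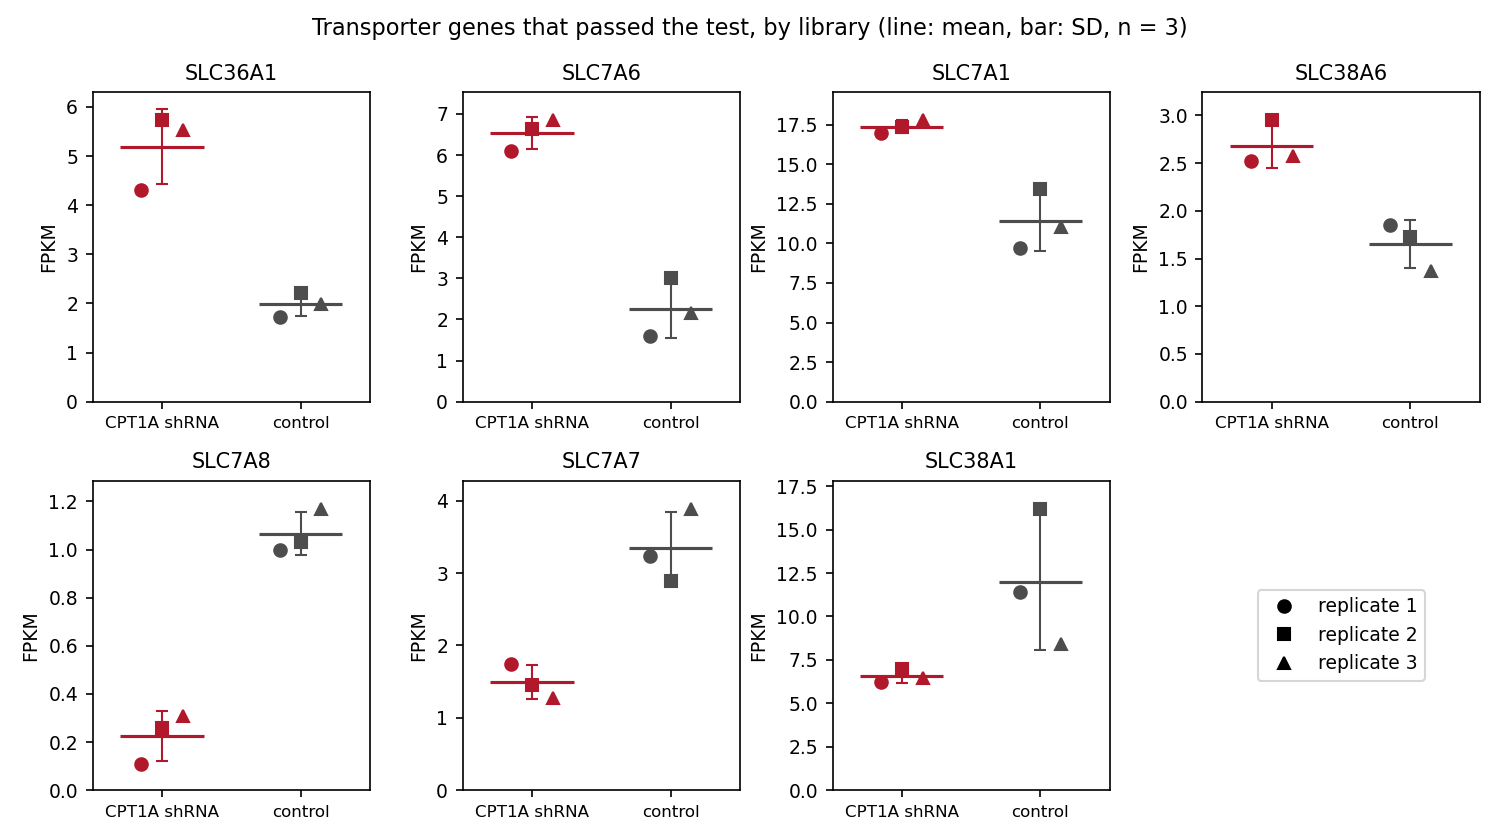
FPKM of the 7 transporter genes that passed the test, with CPT1A shRNA on the left and control on the right of each panel, a symbol for each replicate, a line at the mean and a bar of 1 SD (n = 3). The upper row rose and the lower row fell, and in no panel do the groups overlap, which also holds for 42.6% of all tested genes. SLC7A8 met the FPKM minimum through its control libraries alone. Control replicate 2, the square, is at 16.2 FPKM for SLC38A1 beside 8.41 and 11.4 FPKM in the other control libraries.

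The sodium-coupled glutamine carriers of system A, SLC38A1 (SNAT1) and SLC38A2 (SNAT2), both lie on chromosome 12. SLC38A1 had 6.22, 7.0 and 6.43 FPKM in shRNA libraries and 11.4, 16.2 and 8.41 FPKM in control libraries, so that the shRNA libraries lay close together and below a wide control group. It fell 1.92-fold (log2 change -0.94 ± 0.26 SE, edgeR adjusted p = 0.00225). Control replicate 2 was its highest library, and without it the log2 change was -0.69 (edgeR adjusted p = 0.00174). SLC38A2, which cells are known to induce when amino acids are short, had 19.6, 19.4 and 18.6 FPKM in shRNA libraries, inside the range of the 20.5, 29.8 and 14.95 FPKM of the control libraries (log2 change -0.24 ± 0.27 SE, edgeR adjusted p = 0.337). Its change was 0.03 without control replicate 2 and -0.43 without control replicate 3 (edgeR adjusted p = 0.875 and 0.0303), so single control libraries set its direction and its call.

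Both system A genes were highest in control replicate 2 and lowest in control replicate 3 among the controls. The ratio of SLC38A1 to SLC38A2 in FPKM was 0.317, 0.361 and 0.346 in shRNA libraries, against 0.557, 0.543 and 0.563 in control libraries, with an SD of 0.0223 and 0.00994. The control ratios lay close together, although the SLC38A2 level of these libraries ranged from 14.95 to 29.8 FPKM, and each shRNA library was lower. It was picked after the values were seen and carries no test. In the authors' table SLC38A1 (ENSG00000111371) spans 46576846 to 46663800 and SLC38A2 (ENSG00000134294) 46751972 to 46766650, both on the minus strand. SLC38A4, a further system A carrier known from liver, and the system N carriers SLC38A3 and SLC38A5 were at most 0.39 FPKM.

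Of the other SLC38 genes only SLC38A6 passed. It had 2.52, 2.95 and 2.57 FPKM in shRNA libraries and 1.85, 1.73 and 1.37 FPKM in control libraries, a 1.55-fold increase without overlap (log2 change 0.63 ± 0.14 SE, edgeR adjusted p = 0.0181). The call was lost without shRNA replicate 2 (log2 change 0.56, edgeR adjusted p = 0.101), within a range from 0.00638 over 14 alternatives. SLC38A6 (ENSG00000139974), at 61447832 to 61550451 of chromosome 14, plus strand, shares 245 bases with TRMT5 on the other strand, which was not called (log2 change 0.04, edgeR adjusted p = 0.878). The SLC38 members known from lysosomes did not pass. SLC38A9, the arginine sensor that signals from the lysosome to mTORC1, had 1.17, 1.51 and 1.64 FPKM in shRNA libraries and 1.19, 1.39 and 0.87 FPKM in control libraries (edgeR adjusted p = 0.368). SLC38A7, which exports glutamine and asparagine from lysosomes, had 6.64, 6.34 and 6.06 FPKM in shRNA libraries and 6.16, 6.47 and 6.68 FPKM in control libraries (edgeR adjusted p = 0.612). The abundant SLC38A10 had 22.1 to 25.8 FPKM in shRNA libraries and 21.9 to 25.7 FPKM in control libraries (edgeR adjusted p = 0.564). SLC38A8, a further member of the family, had at most 0.06 FPKM.

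The SLC1 members did not pass. SLC1A5 (ASCT2), the exchanger best known for glutamine uptake in tumour cells, had 32.1, 34.1 and 34.4 FPKM in shRNA libraries and 30.3, 27.8 and 32.5 FPKM in control libraries, with a slight overlap (log2 change 0.08 ± 0.09 SE, edgeR adjusted p = 0.652). SLC1A4 (ASCT1), which exchanges alanine, serine and cysteine, had 3.64, 4.30 and 4.69 FPKM in shRNA libraries and 3.43, 3.49 and 3.94 FPKM in control libraries (edgeR adjusted p = 0.499). SLC1A1 (EAAT3), a sodium-driven carrier of glutamate, aspartate and cysteine, had 1.62 to 1.72 FPKM in shRNA libraries, within the 1.33 to 1.76 FPKM of the control libraries (edgeR adjusted p = 0.925). The glutamate carrier SLC1A7 was below the minimum at 0.48, 0.31 and 0.38 FPKM in shRNA libraries and 0.74, 0.61 and 0.93 FPKM in control libraries, and with the count filter its log2 change was -1.04 (edgeR adjusted p = 0.0174). The glial carriers SLC1A2 and SLC1A3 were at most 0.10 FPKM.

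None of the SLC43 members reached the minimum. SLC43A1 (LAT3), a facilitator for leucine, phenylalanine and methionine, had 0.98, 0.63 and 0.78 FPKM in shRNA libraries and 0.56, 0.30 and 0.47 FPKM in control libraries. SLC43A2 (LAT4), a relative with similar substrates, had 0.62, 0.64 and 0.67 FPKM in shRNA libraries and 0.47, 0.38 and 0.56 FPKM in control libraries. Both genes thus had every shRNA library above every control library at low levels, and neither passed with the count filter (edgeR adjusted p = 0.0874 and 0.223). SLC43A3, which carries purine nucleobases and not amino acids, was at most 0.13 FPKM.

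The remaining amino acid carriers and the genes that sense or use amino acids were read from lists written from general knowledge. The list of further amino acid transporters held 27 genes of other families, of which 11 were tested, 4 were higher, none lower and 7 did not pass, with a median log2 change of 0.26. The 36.4% called is 4 genes, beside 27.4% of all genes tested. SLC6A6, the taurine carrier, had 4.55, 4.87 and 4.72 FPKM in shRNA libraries and 2.01, 2.42 and 2.26 FPKM in control libraries, a 2.01-fold increase (edgeR adjusted p = 0.000266). SLC6A17, a vesicular carrier of neutral amino acids in neurons, rose 1.91-fold (edgeR adjusted p = 0.000518). The mitochondrial aspartate-glutamate carrier SLC25A13 rose 1.57-fold (edgeR adjusted p = 0.0023) and the mitochondrial ornithine carrier SLC25A15 1.51-fold (edgeR adjusted p = 0.0489). As first written, the list also held the cystine carrier SLC7A11, a further partner of SLC3A2. SLC7A11 had 9.37, 7.39 and 7.15 FPKM in shRNA libraries and 5.98, 6.89 and 3.66 FPKM in control libraries and did not pass (edgeR adjusted p = 0.0881). With SLC7A11 the list held 28 genes, of which 12 were tested and 33.3% called, with a median log2 change of 0.28.

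In the list of lysosomal amino acid sensing by mTORC1, 39 of 43 genes were tested, 7 were higher and 7 lower, with a median log2 change of 0.01 and 35.9% called, beside 27.4% of all genes tested. The kinase MTOR had 11.1, 12.1 and 10.5 FPKM in shRNA libraries and 5.19, 6.43 and 5.81 FPKM in control libraries, a 1.85-fold increase (edgeR adjusted p = 0.000228). The mTORC1 scaffold RPTOR rose 1.60-fold (edgeR adjusted p = 0.000933), the Rag GTPase RRAGD 1.72-fold (edgeR adjusted p = 0.00118) and SESN1, an inhibitor of the pathway, 1.94-fold (edgeR adjusted p = 0.00163). Genes that promote and genes that restrain mTORC1 were thus both among the higher genes. Of the 5 subunits of the Ragulator scaffold, named after their values were seen, LAMTOR3, LAMTOR4 and LAMTOR5 fell 1.55-, 1.39- and 1.37-fold (edgeR adjusted p = 0.0248, 0.0438 and 0.0138), the groups of LAMTOR4 overlapping. LAMTOR1 and LAMTOR2 did not pass (log2 change -0.09 and -0.37, edgeR adjusted p = 0.657 and 0.0537). The count of 14 called genes was 7 without control replicate 1 and 8 without shRNA replicate 2.

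In the list of the GCN2 and ATF4 amino acid response, 38 of 39 genes were tested, 8 were higher and 8 lower, with a median log2 change of 0.12 and 42.1% called, beside 27.4% of all genes tested. The kinase EIF2AK4 (GCN2), which senses uncharged tRNA, had 21.4, 22.9 and 23.2 FPKM in shRNA libraries and 11.8, 15.7 and 12.5 FPKM in control libraries, a 1.61-fold increase (edgeR adjusted p = 0.00105). The asparagine synthetase ASNS rose 1.82-fold (edgeR adjusted p = 0.00106). The stress-induced regulator NUPR1 fell 3.05-fold (edgeR adjusted p = 6.5e-05), CTH, which makes cysteine from cystathionine, 2.05-fold (edgeR adjusted p = 0.000119) and the glycyl-tRNA synthetase GARS 1.86-fold (edgeR adjusted p = 0.000352). The count of 16 called genes was 9 without control replicate 1 and 10 without shRNA replicate 2.

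Among 62 enzymes of amino acid use, 44 were tested, 5 were higher and 7 lower, with a median log2 change of -0.05. The share called, 27.3%, was at the background of 27.4%. ODC1, which makes putrescine from ornithine, had 57.2, 59.7 and 62.6 FPKM in shRNA libraries and 27.2, 27.3 and 28.3 FPKM in control libraries, a 2.06-fold increase with narrow groups (edgeR adjusted p = 3.86e-05). FAH, of tyrosine breakdown, rose 1.75-fold (edgeR adjusted p = 0.000841), and ASNS and CTH are in this list too. ASL, the argininosuccinate lyase that forms arginine, fell 1.76-fold (edgeR adjusted p = 0.00168). ASS1, the enzyme before it, had 20.7, 14.9 and 12.1 FPKM in shRNA libraries and 25.2, 25.4 and 32.1 FPKM in control libraries and fell 1.82-fold (edgeR adjusted p = 0.00386). The glutamine synthetase GLUL had 0.88, 1.01 and 0.89 FPKM in shRNA libraries and 1.33, 1.64 and 1.15 FPKM in control libraries. It fell 1.56-fold (edgeR adjusted p = 0.0183), at levels close to the FPKM minimum, which only replicate 2 of the shRNA libraries reached. ASS1 and GLUL were named after their values were seen.

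**Figure D5:**
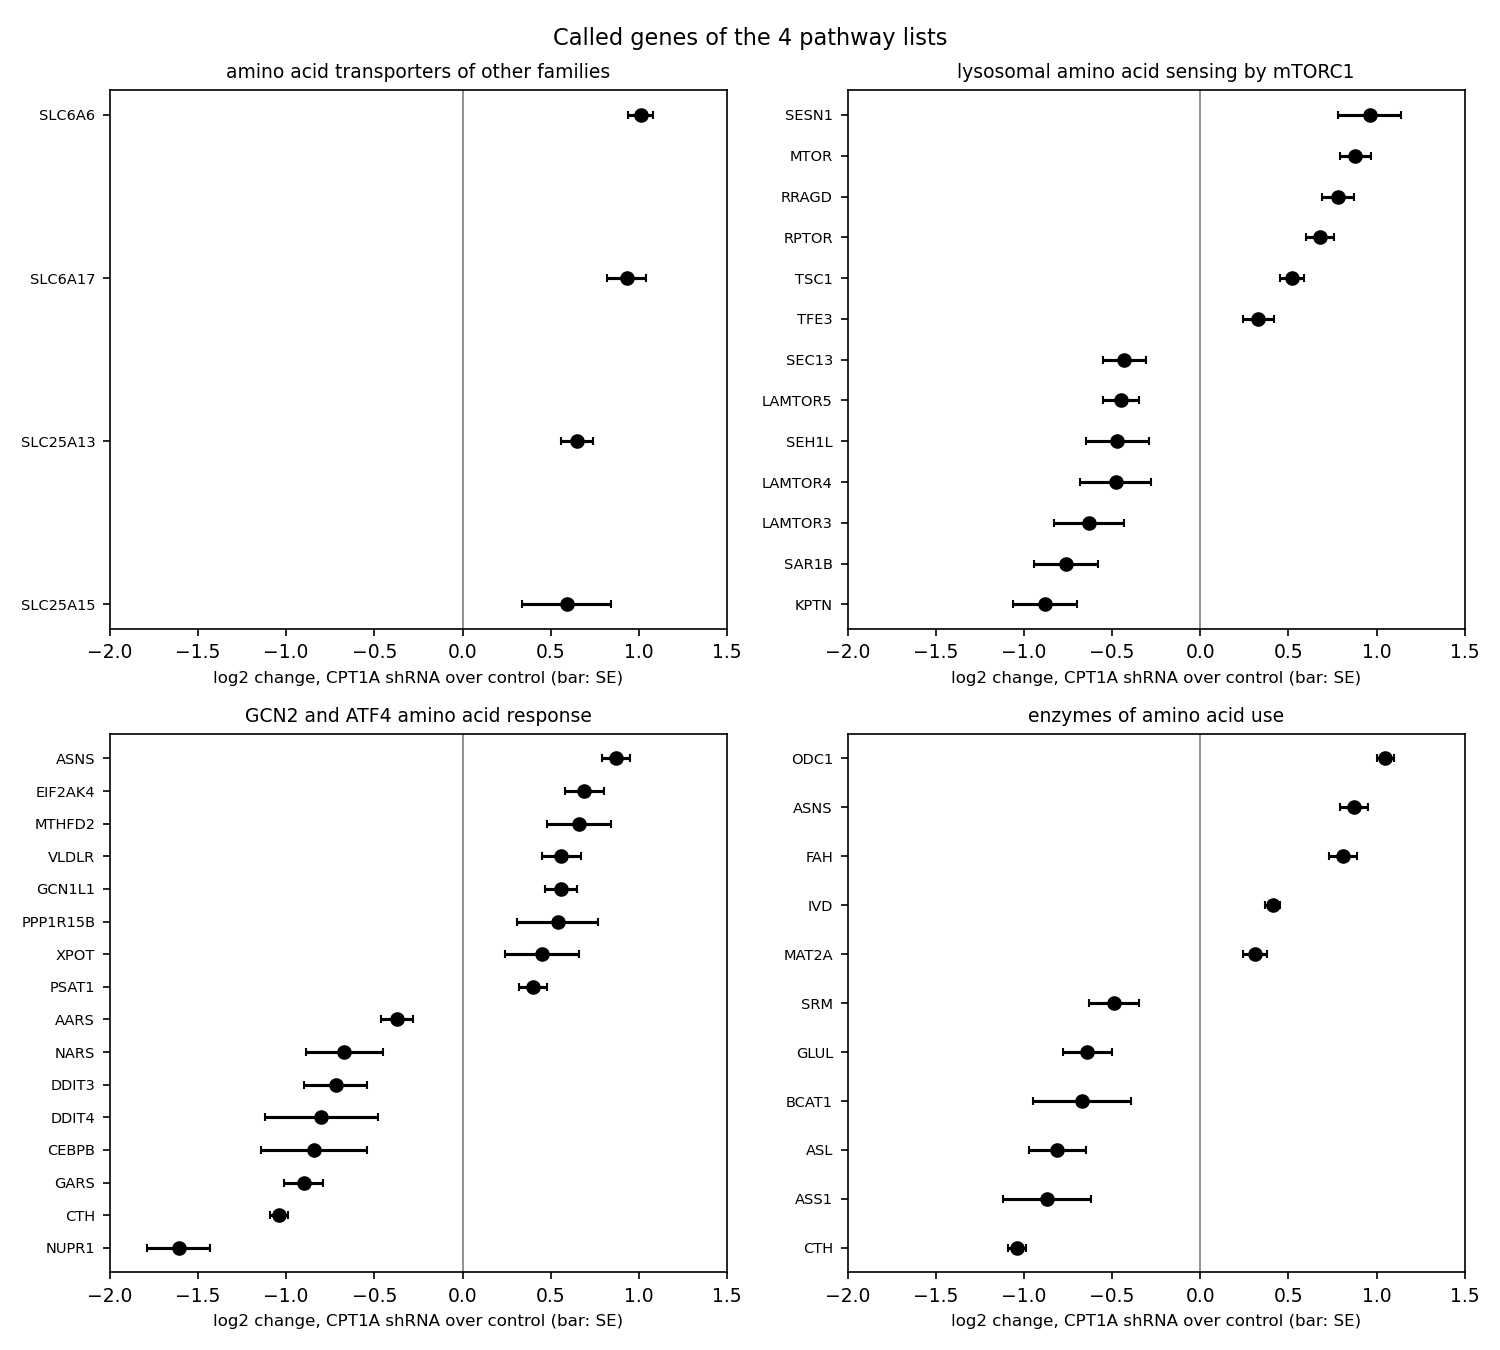
Fitted log2 change, CPT1A shRNA over control, of called genes in each of the 4 lists, with bars of 1 SE; 2 called genes are not drawn. The points run from NUPR1 at -1.61 to ODC1 at 1.05, and 4 of the 11 tested carriers of other families are drawn.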

How the data were processed

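RNA sequencing of 6 SKOV3 libraries was used, 3 with an shRNA against CPT1A and 3 controls. Per the labels' protocols, total RNA went through poly(A) selection or rRNA removal (which was used is not said), random priming and 13 PCR cycles. Whole-number counts per gene are as deposited by the authors, and the submitters' processing notes list DESeq2, HTSeq 0.6.1, HISAT2 2.0.1 and cutadapt 1.9.1 without roles. The deposited FPKM are the authors' counts divided by the table's exonic length and the library's summed counts, a formula that gave 100% of the values within 0.0051. The notes name build mm8, but the table holds human Ensembl identifiers. Of the 39 members, 1 has the same start as in GENCODE 29 on GRCh38, so the table's coordinates are given as deposited. RefSeq promoter windows carry their own GRCh38.p14 coordinates.

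The shRNA and control groups were tested by edgeR 4.0.16 (R 4.3.3; TMM scaling, quasi-likelihood F test) over 12784 genes that reached 1 FPKM in 3 or more of 6 libraries, with Benjamini-Hochberg adjustment over all of them and calls at an adjusted p under 0.05. Each SE belongs to the difference of the groups' mean log2 CPM (prior count 2). The procedure was checked on simulated data. DESeq2 1.42.0 and limma 3.58.1 served as alternatives. Promoter motifs were searched in 250 bases before each start. Libraries of a group differed beyond counting error (chi-square over its degrees of freedom 6.68 to 38.1). The limit of 3 counts for genes without a count covers counting error alone, as reads copied by PCR are not separate molecules.

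The members and gene lists were chosen with earlier results of these data known. Every member was accounted for, and up to 5 called genes with the smallest p were named from each pathway list, together with CPT1A and overlapping genes that bear on a member's value. A few genes that this rule would name are counted but not reported here. Genes named beyond this rule are marked where they appear, apart from SLC7A11, the pseudogene SLC7A5P1 and the cell type markers. The SLC3A2 ratio with SLC7A11 among the light chains was named in the design of that ratio and added to the list of alternatives after the data had been seen. FPKM divided by TMM factors and the list of other carriers without SLC7A11 were also chosen after the data had been seen.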

Additional observations from a re-analysis of the deposited data

How the results depend on the processing

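The 7 called transporter genes kept their direction in all 98 values over 14 alternatives each, and their call in 97, the exception being SLC38A6 without shRNA replicate 2. SLC7A8 is among them, although it met the FPKM minimum through its control libraries alone. Fits that left out a library kept the genes that had passed the minimum over all 6 libraries. SLC7A8 thus stayed in the fits without a control library, where it would not have met that minimum, so its values there are no independent support. The count of lower members was 5 with the filterByExpr filter and 5 with no filter, against 3, through SLC1A7 and SLC36A4. Leaving out each library in turn gave 3 to 5 higher and 3 to 4 lower members. Over all genes it gave 968 to 2539 higher and 914 to 2511 lower, lowest without control replicate 1 and highest without control replicate 2. The count without shRNA replicate 2 was 1077 higher and 983 lower. The called genes of the mTORC1 list numbered 7 to 17 and those of the GCN2 and ATF4 list 9 to 19. Those of the other 2 lists numbered 3 to 6 (other carriers, with SLC7A11 in the list) and 8 to 16 (enzymes). CPT1A changed by -2.04 to -1.90, and the SLC3A2 ratio, shRNA minus control, by -0.112 to -0.0607. With SLC7A11 among the light chains that difference was -0.0913. Of the called genes, 61.8% were higher with total counts alone and 60.5% with limma on log2(FPKM + 1), against 50.2% with TMM. Of the 9 tested members without a call, the log2 change of SLC7A5 passed at 0.32 with total counts and with limma and at 0.34 without control replicate 3, and that of SLC3A2 turned to 0.05 with total counts and with limma at either pseudocount, to 0.01 and 0.04 without control replicates 1 and 3 and to 0.00012 without shRNA replicate 1. SLC1A5 turned to -0.00048 and SLC38A2 to 0.03 without control replicate 2, and SLC1A1 to -0.05 without control replicate 3. Leaving out each library gave -0.10 (without control replicate 2) as the other end for SLC3A2, 0.16 (without control replicate 3) for SLC1A5, 0.10 (without control replicate 2) for SLC1A1 and -0.43 (without control replicate 3) for SLC38A2. The causes were not tested. The replicate numbers did not pair the libraries (correlation of deviations for the same number -0.04, 0.01 and -0.20), and a fit with the replicate block called 4 members higher and 3 lower, and 1666 genes higher and 1595 lower. Members near 0 FPKM are limited by depth.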
